A study of Mus musculus with 18 samples.

Results

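Newly transcribed RNA of 9 mouse genes was lower in fibroblasts given IFNγ: Rgs4, Fgd3, Lurap1l, Nppb, Ltbp3, Itgb8, Bnc1, Tet1 and Krtap1-5. The 9 genes were selected on the measured fall with IFNγ, with or without cycloheximide, on these same arrays, so that fall is given as a description and was not tested. All 21 probe sets annotated to one of these symbols alone were taken, out of 45037 probe sets on the array, of which 34945 carry a single gene symbol. Of the 21 probe sets, 16, covering all 9 genes, had an intensity high enough on at least 1 array to enter the fit.

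The cells were NIH-3T3, an established line of mouse embryo fibroblasts. There were 6 treatments, each measured on 3 arrays. With cycloheximide (CHX, 15 min of pretreatment), the cells then received IFNγ (IFNγ + CHX), IFNα (IFNα + CHX) or mock treatment (CHX), and without it, in the solvent DMSO, they received IFNγ, IFNα or mock treatment (mock). Interferon was given at 100 U/ml for 1 h, and 500 µM 4-thiouridine (4sU) was added to every culture for the last 30 min, so that the purified 4sU-tagged RNA was made in that window. A single cell line and a single time point limit the groups as a model. The paper calls the replicates biological, and the labels do not say whether they were separate cultures on separate days.

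IFNγ is the type II interferon. It binds its own receptor, which activates the kinases Jak1 and Jak2 and leads to genes with GAS elements, whereas IFNα, a type I interferon, acts through another receptor and mainly on genes with an ISRE. Both pathways are best known for the genes they induce. CHX blocks translation, so a response that needs a newly made protein is lost under it, and a change that remains does not need one. Labelling with 4sU reads RNA synthesis, because old transcripts that were made before the pulse are not tagged and do not mask a fall.

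The arrays were alike in scale: medians lay between 9.6 and 10.8 and upper quartiles between 114.6 and 141, the lowest upper quartiles being those of replicate 1 of IFNγ + CHX (114.6) and replicate 1 of CHX (115.8). The mean correlation of an array with the others of its treatment lay between 0.9676 (replicate 1 of CHX) and 0.9928, and no 2 arrays were identical. The 9 fibroblast markers examined, collagens, vimentin, fibronectin and PDGF receptors among them, were measured on every array, with summed intensities of 61240 to 67939 in IFNγ + CHX, 57860 to 62938 in IFNα + CHX, 55735 to 62576 in CHX, 52668 to 56906 in IFNγ, 48598 to 50201 in IFNα and 52241 to 55970 in mock cells. All 4 leukocyte and all 4 endothelial markers measured were below 8.5, the lowest maximum that entered the fit, on every array, and of the epithelial markers Epcam was between 11.7 and 20, Cdh1 at most 9.4 and Krt18 at most 10.5. Of 11 genes induced by IFNγ that the study itself had picked, which is no independent evidence, 10 were called higher with IFNγ over mock (called: adjusted p below 0.01 and at least 2-fold, limma with Benjamini-Hochberg adjustment over 27773 probe sets; 1.42% of all probe sets were called higher), and 9 were called higher with IFNγ + CHX over CHX (2.57% of all probe sets).

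The 250 bases before the annotated start of each gene were read from RefSeq (GRCm38.p6), where all 9 genes matched, and searched on both strands for 4 short motifs among 32841 such windows. The GAS element (TTCNNNGAA) was in none of the 9 windows and in 7.02% of all windows. The ISRE core (GAAANNGAAA) was in 1 of 9, that of Lurap1l, against 2.98% of all windows, and the GC box (GGGCGG) in 2 of 9, Bnc1 and Tet1, against 32.7%. The TATA box (TATAAA) was in 3 of 9 windows, those of Rgs4, Nppb and Krtap1-5, against 12.4% of all windows. In all 3 its bases stood 31 to 26 before the start on the gene's own strand, and 1.75% of all windows held a TATAAA on that strand beginning 25 to 35 bases before the start. The GC content was 83.6% in the Bnc1 window, higher than in 99.7% of all windows, and 38.0% in the Krtap1-5 window, higher than in 8.44%, with a median of 52.4% over all windows. The windows of the 3 genes with a TATA box, of Bnc1 for its GC boxes and of Lurap1l for its ISRE core are printed 5′ to 3′ up to the base before the start, with every match to the 4 motifs in capitals. A match is a description of these letters and not a bound site.
Rgs4 (chr1:169747643-169747892, minus strand): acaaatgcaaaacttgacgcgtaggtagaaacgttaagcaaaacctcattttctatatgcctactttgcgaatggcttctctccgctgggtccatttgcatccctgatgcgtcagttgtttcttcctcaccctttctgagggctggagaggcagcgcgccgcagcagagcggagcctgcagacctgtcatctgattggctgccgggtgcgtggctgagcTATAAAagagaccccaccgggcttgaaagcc
Nppb (chr4:147985650-147985899, plus strand): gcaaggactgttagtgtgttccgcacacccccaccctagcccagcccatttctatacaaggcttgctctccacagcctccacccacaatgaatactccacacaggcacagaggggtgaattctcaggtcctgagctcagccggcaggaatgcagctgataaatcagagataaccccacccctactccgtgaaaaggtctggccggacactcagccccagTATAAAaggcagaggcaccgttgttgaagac
Krtap1-5 (chr11:99581017-99581266, minus strand): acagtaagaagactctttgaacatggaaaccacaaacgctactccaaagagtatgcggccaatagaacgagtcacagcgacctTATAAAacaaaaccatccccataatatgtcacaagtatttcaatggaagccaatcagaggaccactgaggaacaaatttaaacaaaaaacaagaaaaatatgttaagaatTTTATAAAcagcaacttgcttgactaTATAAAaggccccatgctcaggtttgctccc
Bnc1 (chr7:81992300-81992549, minus strand): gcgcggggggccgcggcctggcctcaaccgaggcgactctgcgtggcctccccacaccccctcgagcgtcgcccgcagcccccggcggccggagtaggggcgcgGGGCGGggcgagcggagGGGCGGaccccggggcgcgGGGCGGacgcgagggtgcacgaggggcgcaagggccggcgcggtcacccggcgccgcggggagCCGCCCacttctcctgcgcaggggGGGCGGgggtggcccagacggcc
Lurap1l (chr4:80910436-80910685, plus strand): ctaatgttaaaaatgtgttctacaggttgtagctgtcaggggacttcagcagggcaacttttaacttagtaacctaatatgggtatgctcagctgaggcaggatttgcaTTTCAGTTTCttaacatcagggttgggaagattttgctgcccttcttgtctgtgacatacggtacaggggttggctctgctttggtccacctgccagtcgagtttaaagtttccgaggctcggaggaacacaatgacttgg

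The fall with IFNγ took 3 forms. Rgs4, Bnc1, Fgd3, Lurap1l and Nppb, 5 genes, had a probe set at least 2-fold lower with IFNγ both without and with CHX. Itgb8 and Tet1 were at least 2-fold lower without CHX alone, and Ltbp3 and Krtap1-5 with CHX alone. The forms depend on the probe set and on the floor of the array. Under CHX the main probe set of Lurap1l fell 1.73-fold and that of Tet1 1.74-fold, and Lurap1l was placed by 1459552_at. Ltbp3 was placed by 1437833_at and 1456189_x_at alone. Krtap1-5 was below 8.5 on every array without CHX, where a fall could not be seen. In each of the 2 contrasts 9 of the 16 probe sets were at least 2-fold lower and none was 2-fold higher. The median log2 change over the 16 probe sets was -1.58 for IFNγ over mock, where that of all 27773 probe sets was -0.001, and -1.64 for IFNγ + CHX over CHX, where that of all was -0.04. Among all probe sets 0.209% were called lower with IFNγ over mock and 0.612% with IFNγ + CHX over CHX. Since these contrasts chose the genes, nothing is read from those shares. Mock and CHX arrays are their references, so no test over mock or over CHX given below for the 9 genes is independent of that choice. The arrays measure a culture, so fewer cells transcribing a gene and less RNA made per cell cannot be told apart.

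**Figure D1:**
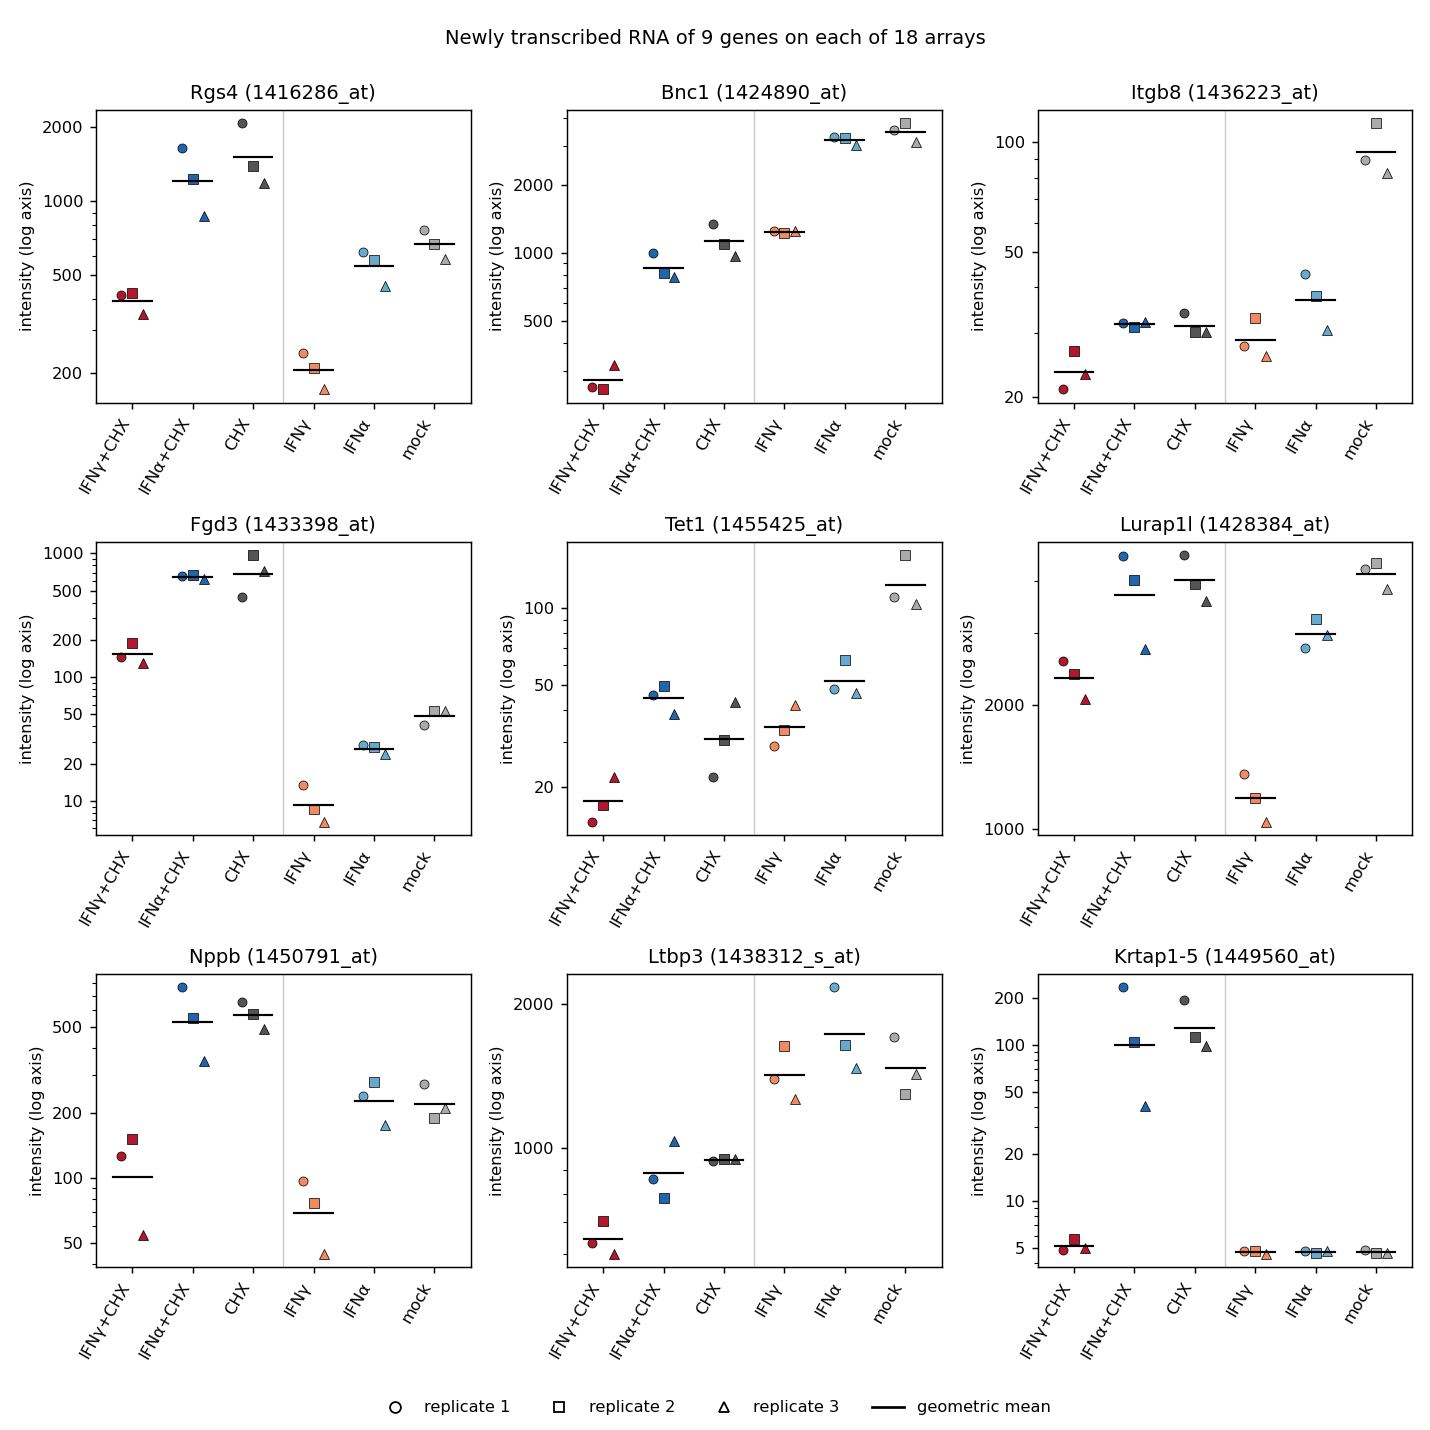
Intensity (log axis) of the main probe set of each of the 9 genes on each of 18 arrays, with 3 arrays per treatment as points and their geometric mean as a line; treatments with CHX stand left of the grey line. Krtap1-5 was at 4.6 to 5.7 on every array except those of IFNα + CHX and CHX, and Fgd3 was higher on every array with CHX than on any without.

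Rgs4 encodes a GTPase-activating protein that shortens signalling by heterotrimeric G proteins. Its main probe set (1416286_at) read 415, 423 and 348 in IFNγ + CHX, 1643, 1227 and 875 in IFNα + CHX, and 2081, 1392 and 1190.1 in CHX cells. Without CHX it read 243, 211 and 172 in IFNγ, 623, 575 and 452 in IFNα, and 767, 669 and 584 in mock cells. The 3 arrays with IFNγ lay below every array of their counterpart without interferon, whether CHX was present or not, and the arrays of IFNα overlapped those of mock cells and those of IFNα + CHX overlapped those of CHX. The fall was 3.83-fold under CHX (log2 change -1.94, SE 0.24) and 3.24-fold without it (-1.70, SE 0.24). CHX raised Rgs4 both in IFNα-treated cells (log2 change 1.15, SE 0.24, adjusted p = 0.00335 by limma) and in mock cells (1.18, SE 0.24, adjusted p = 0.00312), with no overlap of arrays in either. The first call was lost without replicate 2 or 3 of IFNα or 1 or 2 of IFNα + CHX (adjusted p up to 0.0193). The second was lost without replicate 2 or 3 of mock or replicate 1 of CHX (up to 0.0163). With only the arrays compared in the fit both were lost (0.0396 and 0.0282). Leaving out both arrays of lowest upper quartile ended the second as well (0.0192). The second also used the mock and CHX arrays, the references when Rgs4 was chosen. A second probe set (1416287_at) was dimmer, with 17.1, 30.2 and 66.4 in IFNγ + CHX against 119, 248 and 202 in CHX, and 31.5, 19.4 and 36.6 in IFNγ against 117, 89.1 and 89.3 in mock cells. It fell 5.57-fold and 3.46-fold, and its changes with CHX did not pass the test. The third (1448285_at) stayed between 5 and 8.4 and did not enter the fit.

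Fgd3 encodes a guanine nucleotide exchange factor for Cdc42, a small GTPase that shapes the actin cytoskeleton. Its probe set 1433398_at read 145, 191 and 130.2 in IFNγ + CHX, 660, 667 and 621 in IFNα + CHX, and 447, 969 and 728 in CHX cells. Without CHX the same probe set was dim, with 13.4, 8.6 and 6.8 in IFNγ, 28.1, 27.2 and 23.8 in IFNα, and 41.3, 52.9 and 52.9 in mock cells. None of the treatments without CHX overlapped another, in the order IFNγ, IFNα, mock from low to high. The IFNγ fall was 4.45-fold under CHX (log2 change -2.15, SE 0.27) and 5.28-fold without it (-2.40, SE 0.27), where 1 IFNγ array was below 8.5 and log2(value + 16) gave -1.35. Fgd3 rose with CHX by more than 8-fold: in IFNα-treated cells the log2 change was 4.62 (SE 0.27, adjusted p = 5.74e-08) and in mock cells 3.80 (SE 0.27, adjusted p = 4.65e-07). Both calls remained in every alternative fit that was run. That in mock cells used the mock and CHX arrays, which were also the references when Fgd3 was chosen. The change with IFNα over mock was -0.89 (SE 0.27, adjusted p = 0.288), which did not pass although the arrays did not overlap. Probe sets 1450235_at and 1454593_at stayed between 3.9 and 6.5 on all arrays and did not enter the fit.

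Lurap1l encodes a leucine-rich adaptor protein named for its likeness to Lurap1. Probe set 1428384_at read 2554, 2384 and 2067 in IFNγ + CHX, 4616, 4036 and 2730 in IFNα + CHX, and 4624, 3941 and 3580 in CHX cells. Without CHX it read 1360.1, 1189 and 1041 in IFNγ, 2751, 3233 and 2966 in IFNα, and 4274, 4439 and 3822 in mock cells. IFNγ arrays lay below all others without CHX, and IFNα arrays lay between them and mock with no overlap. The IFNγ fall was 1.73-fold under CHX (log2 change -0.79, SE 0.17) and 3.51-fold without it (-1.81, SE 0.17). The second probe set (1459552_at) was dimmer and fell by more, 2.52-fold under CHX and 5.54-fold without it. Lurap1l was the gene whose level moved least with CHX in mock cells: the log2 change was -0.05, with a 95% interval of -0.42 to 0.32 (adjusted p = 0.858). In IFNα-treated cells it was 0.32, with an interval of -0.06 to 0.69 (adjusted p = 0.247). A change of 2-fold lies outside both intervals of this probe set, whereas for 1459552_at the interval with CHX over mock, -1.05 to 0.35, includes a 2-fold fall. With IFNα over mock the main probe set changed by -0.49 (adjusted p = 0.506) and the second by -0.85 (adjusted p = 0.604). The third (1441299_at) was between 8.4 and 11.3 on all arrays.

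Nppb encodes the precursor of brain natriuretic peptide, a secreted hormone of the heart that acts through guanylyl cyclase receptors. It read 127, 151 and 54.3 in IFNγ + CHX, 765, 555 and 348 in IFNα + CHX, and 653, 580 and 489 in CHX cells (1450791_at). Without CHX it read 96.8, 76.5 and 44.5 in IFNγ, 239.7, 279 and 176 in IFNα, and 272, 189.6 and 211 in mock cells. Arrays with IFNγ were below all arrays with IFNα or mock treatment at either CHX state, and replicate 3 was the lowest in 5 of the 6 treatments. The fall was 5.62-fold under CHX (log2 change -2.49, SE 0.38) and 3.21-fold without it (-1.68, SE 0.38). The change with CHX was 1.22 in IFNα-treated cells (SE 0.38, adjusted p = 0.0369) and 1.36 in mock cells (SE 0.38, adjusted p = 0.0222), neither past the threshold of 0.01. With the replicate number as a block both passed (adjusted p = 0.00199 and 0.000989), the only calls among the 9 genes that the block changed. The test in mock cells shares its arrays with the references of the contrasts that chose Nppb. IFNα changed Nppb by -0.11 over CHX (95% interval -0.93 to 0.72) and by 0.04 over mock (-0.79 to 0.86), both with an adjusted p of 1.

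Ltbp3 encodes a latent TGF-β binding protein, which holds the inactive growth factor in the extracellular matrix. Its 4 probe sets gave different sizes. The main one (1438312_s_at, whose suffix marks probes shared among transcripts) read 634, 704 and 601 in IFNγ + CHX, 863, 786 and 1033 in IFNα + CHX, 939, 947 and 950.2 in CHX, 1393, 1630 and 1266 in IFNγ, 2164, 1640 and 1467 in IFNα, and 1703, 1297 and 1429 in mock cells. Under CHX the IFNγ arrays lay below the others, and without CHX IFNγ and mock arrays overlapped. Probe set 1437833_at read 14.6, 94 and 41.7 in IFNγ + CHX against 212, 319 and 488 in CHX cells, and 549.9, 494 and 683 in IFNγ against 459, 675 and 822 in mock cells. Under CHX the fall with IFNγ was 8.32-fold by 1437833_at (log2 change -3.06, SE 0.56), 4.50-fold by 1456189_x_at, 1.55-fold by 1418049_at and 1.47-fold by the main probe set. Without CHX the 4 log2 changes lay between -0.19 and -0.04. The suffix x marks probes that may bind other transcripts, and whether that sets the gap between probe sets was not tested.

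CHX lowered Ltbp3 by 3 of 4 probe sets in IFNα-treated cells: the log2 changes were -1.32 (1418049_at, SE 0.13, adjusted p = 6.26e-06), -2.26 (1437833_at, SE 0.56, adjusted p = 0.00998) and -2.21 (1456189_x_at, SE 0.42, adjusted p = 0.00175). The main probe set changed by -0.96 (SE 0.15, adjusted p = 0.000463), short of 2-fold. In mock cells 1418049_at alone was called (-1.12, SE 0.13, adjusted p = 3.36e-05), and the other 3 changed by -0.63 to -1.13. The mock and CHX arrays were also the references when Ltbp3 was chosen. The call by 1437833_at was lost on leaving out any array of IFNα or replicate 1 or 2 of IFNα + CHX (adjusted p up to 0.047), and also with no filter (0.022), quantile normalization (0.0115), median centring (0.0125) or only the arrays compared (0.0282). The call by 1456189_x_at was lost on leaving out replicate 2 of IFNα (0.0101) and with only the arrays compared (0.018). With IFNα over mock the 4 changes were 0.24 to 0.81, none called. Levels by 1437833_at were 1077, 1216 and 1055 in IFNα, above every mock array, with an adjusted p of 1.

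**Figure D2:**
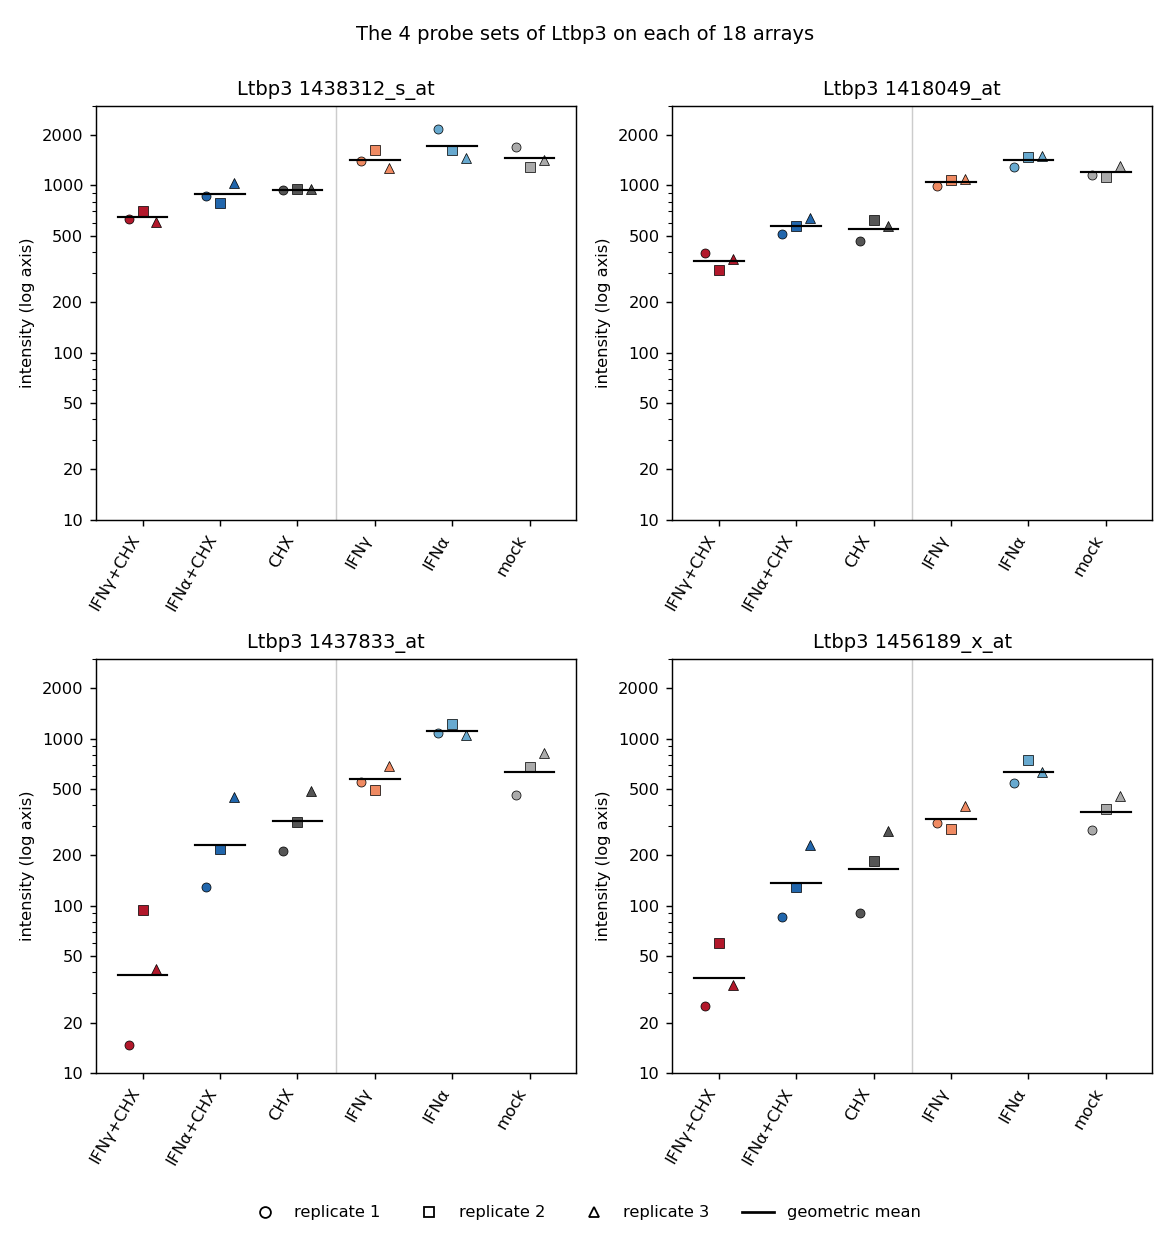
Intensity (log axis, the same in all panels) of the 4 Ltbp3 probe sets on 18 arrays, with points for arrays and lines for geometric means. The IFNγ + CHX arrays were at 14.6 to 94 by 1437833_at and 25.3 to 59.8 by 1456189_x_at, and at 601 to 704 and 314 to 395 by the other two.

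Itgb8 encodes the β8 integrin subunit, which pairs with αv and releases active TGF-β from its latent form. It read 21, 26.7 and 23.2 in IFNγ + CHX, 31.9, 31.1 and 32.2 in IFNα + CHX, and 34, 30.1 and 30.1 in CHX cells (1436223_at). Without CHX it read 27.7, 32.9 and 26 in IFNγ, 43.6, 37.9 and 30.6 in IFNα, and 89.7, 113 and 82.4 in mock cells. Mock cells stood alone: their lowest array was above every array of the other 5 treatments. The IFNγ fall was 3.28-fold without CHX (log2 change -1.71, SE 0.15) and 1.33-fold under it (-0.41, SE 0.15). Itgb8 was also lower with IFNα over mock, by a log2 change of -1.35 (SE 0.15, adjusted p = 9.48e-05, lower on 3 of 3 arrays). In IFNα + CHX over CHX the change was 0.02, with a 95% interval of -0.30 to 0.34. CHX lowered it in mock cells (-1.59, SE 0.15, adjusted p = 5.92e-06) and changed it by -0.22 in IFNα-treated cells (95% interval -0.54 to 0.10, adjusted p = 0.366). The mock arrays were also the reference of the contrast that chose Itgb8, so the tests over mock are not independent of that choice.

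Bnc1 encodes basonuclin, a zinc-finger protein of the nucleus that binds promoters of ribosomal RNA genes and is best known in keratinocytes and germ cells. It read 254, 247 and 319 in IFNγ + CHX, 999, 819 and 782 in IFNα + CHX, and 1349, 1094 and 974 in CHX cells (1424890_at). Without CHX it read 1253, 1233 and 1253 in IFNγ, 3268, 3250 and 3016 in IFNα, and 3511, 3786 and 3124 in mock cells. IFNγ and CHX each brought Bnc1 to a similar level, with overlapping arrays, and cells given both stood below all others. The fall with IFNγ was 4.16-fold under CHX (log2 change -2.06, SE 0.14) and 2.78-fold without it (-1.47, SE 0.14). CHX lowered Bnc1 in IFNα-treated cells (log2 change -1.88, SE 0.14, adjusted p = 4.85e-07) and in mock cells (-1.62, SE 0.14, adjusted p = 2.7e-06). In both cases every array with CHX was below every array without it, and both calls held in every alternative fit run. The call in mock cells uses the references of the contrasts that chose Bnc1, so it is not independent of that choice. IFNα changed it by -0.39 over CHX (95% interval -0.68 to -0.10, adjusted p = 0.577) and by -0.12 over mock (-0.42 to 0.17, adjusted p = 1).

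Tet1 encodes a dioxygenase that oxidises 5-methylcytosine, a step towards removal of DNA methylation. Probe set 1455425_at read 14.6, 17 and 21.9 in IFNγ + CHX, 45.9, 49.5 and 38.5 in IFNα + CHX, and 21.9, 30.6 and 43 in CHX cells. Without CHX it read 28.8, 33.5 and 41.9 in IFNγ, 48.3, 62.7 and 46.6 in IFNα, and 110.2, 161 and 104 in mock cells. As with Itgb8, the lowest mock array was above every other array. The IFNγ fall was 3.58-fold without CHX (log2 change -1.84, SE 0.25) and 1.74-fold under it (-0.80, SE 0.25), where the groups shared the value 21.9. The change with IFNα over mock was -1.24 (SE 0.25), and its adjusted p of 0.0266 did not pass the threshold. CHX lowered Tet1 in mock cells (-2.00, SE 0.25, adjusted p = 6.73e-05), and in IFNα-treated cells the change was -0.23 (95% interval -0.76 to 0.30, adjusted p = 0.638). The call in mock cells was lost with only the arrays compared in the limma fit (adjusted p = 0.0122). The mock arrays were also the reference of the contrast that chose Tet1, so the tests over mock are not independent of that choice. The other 3 probe sets lay between 4.6 and 12.2 on all arrays, and only 1419897_at of them entered the fit.

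Krtap1-5 encodes a keratin-associated protein of the hair shaft, from a family of genes with closely related sequences. It read 4.9, 5.7 and 5 in IFNγ + CHX, 233, 105 and 40.9 in IFNα + CHX, and 194, 113 and 97.9 in CHX cells (1449560_at). On the 9 arrays without CHX it was between 4.6 and 4.9, and with IFNγ + CHX also below 8.5. Krtap1-5 therefore entered the fit through CHX and IFNα + CHX alone, where it had to differ, so no p is given for its change with CHX, and its fall with IFNγ could be seen under CHX only. CHX was at least 15.2-fold higher than mock and IFNα + CHX at least 11.8-fold higher than IFNα, taking 8.5 for the lower group, and IFNγ + CHX was at least 15.2-fold lower than CHX. IFNα + CHX over CHX changed by -0.37 (95% interval -1.28 to 0.55), with replicate 3 of IFNα + CHX the lowest of the 6 arrays. Whether related keratin-associated genes contribute to the signal was not tested.

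With IFNα over mock 1 of the 16 probe sets, that of Itgb8, was called lower and none higher by limma (0.0396% of all probe sets were called lower and 0.461% higher). Of the 16, 5 had an unadjusted p below 0.05 (3.71% of all probe sets had one and were lower, 2.13% had one and were higher). The arrays did not overlap for 7 of the 16. The share of all probe sets without overlap was not counted, here or under CHX, so nothing is read from these counts. With IFNα + CHX over CHX limma called 0 of 16 (0.0036% of all were called lower), and the arrays overlapped for all 16. An unadjusted p below 0.05 was found for 2, of Bnc1 (lower) and Tet1 (higher), where 1.03% of all probe sets had one and were lower. The shares of all probe sets that were higher with IFNα + CHX over CHX are not given here, so nothing is read from the 0 or the 2. The median log2 change of the 16 was -0.11 and -0.10 in these contrasts, with medians of 0.01 and -0.04 over all probe sets. Those contrasts share the mock and the CHX arrays with the contrasts that chose the genes. The plot of changes with interferon gives both sets of values side by side.

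**Figure D3:**
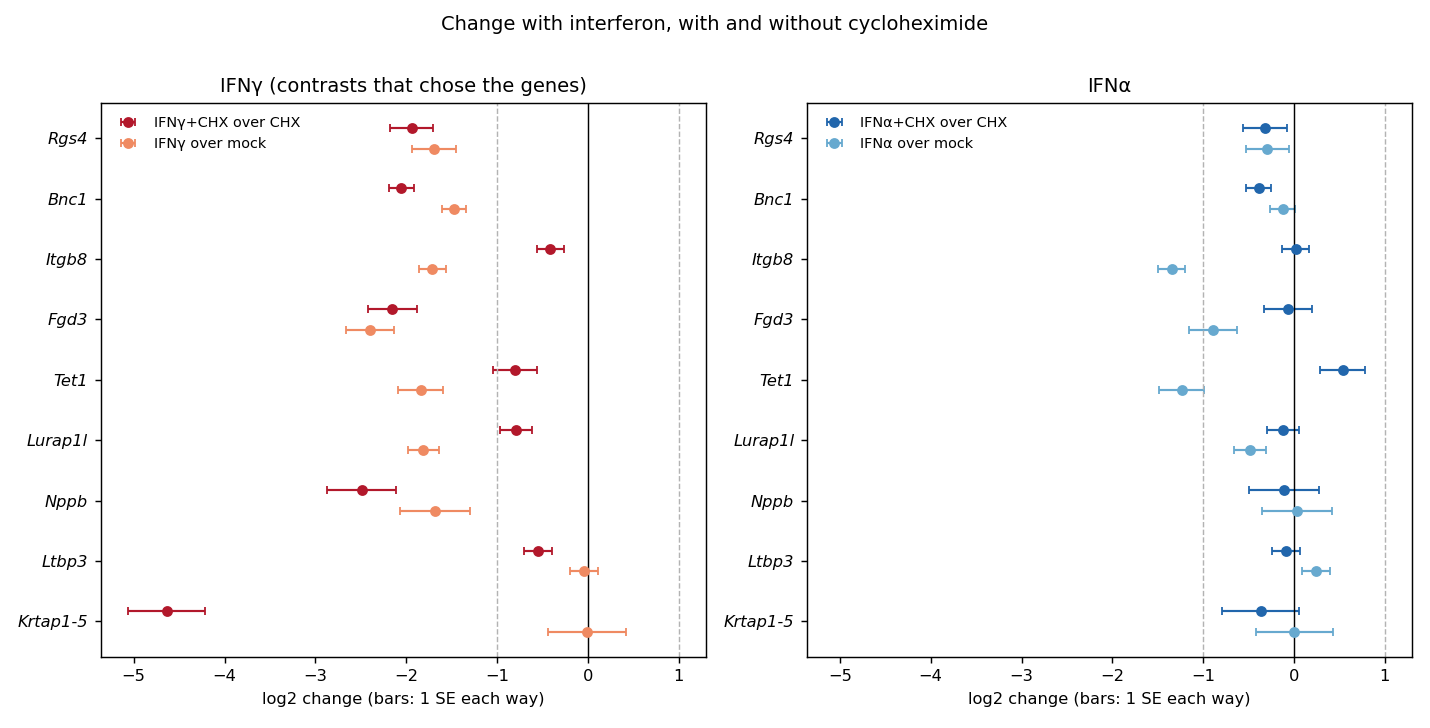
Log2 change of the main probe set of each gene with IFNγ (left) and IFNα (right), over CHX and over mock, with bars of 1 SE each way and dashed lines at 2-fold. The left panel shows the contrasts that chose the genes and carries no test; in the right panel Itgb8 without CHX alone was called, at -1.35.

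CHX moved the genes in opposite directions. The arrays of IFNα-treated cells were not in the IFNγ contrasts that chose the genes. In these cells 4 of the 16 probe sets were called lower, of Bnc1 and Ltbp3, and 3 higher, those of Rgs4, Fgd3 and Krtap1-5 (3.58% of all probe sets were called lower and 3.57% higher). In mock cells 4 were called lower, of Bnc1, Itgb8, Tet1 and Ltbp3, and 3 higher, again of Rgs4, Fgd3 and Krtap1-5 (4.07% lower and 2.51% higher). In both contrasts Krtap1-5 is 1 of the 3 higher calls, and that call was fixed by the filter, which it passed through its arrays with CHX alone. Both groups of the contrast in mock cells are references of the contrasts that chose the genes. The medians of the 16 log2 changes were -0.02 and -0.21, and those of all probe sets -0.01 and 0.04. The summed fibroblast markers were higher with CHX in IFNα-treated cells (57860 to 62938 against 48598 to 50201). In mock cells the ranges overlapped (55735 to 62576 with CHX, 52241 to 55970 without). Their part in the changes with CHX was not tested.

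**Figure D4:**
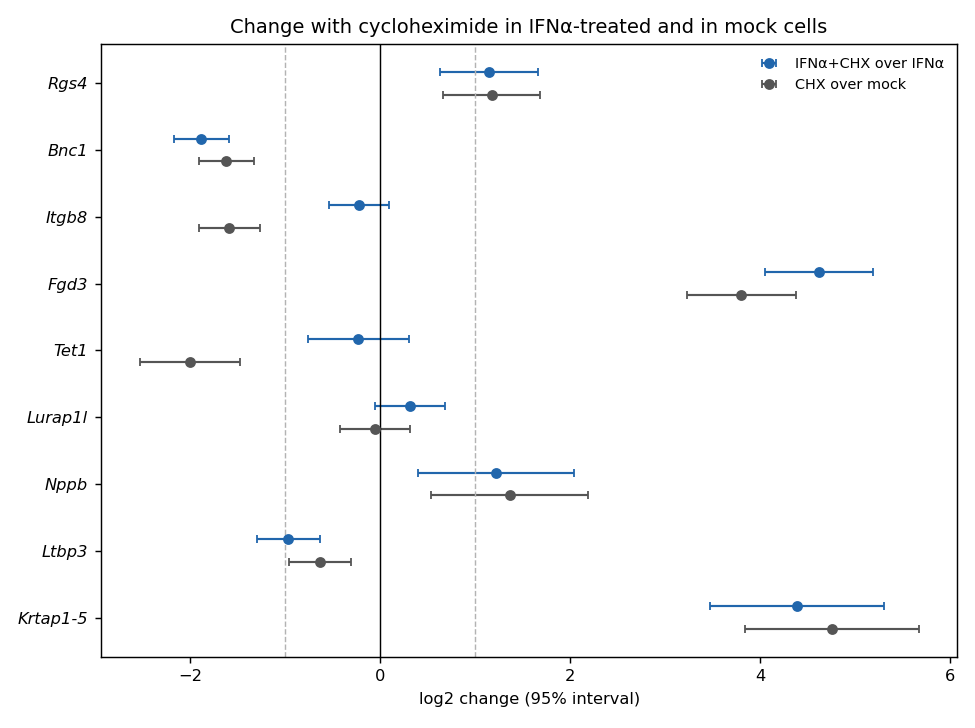
Log2 change of the main probe set of each gene with CHX in IFNα-treated and in mock cells, with 95% intervals and dashed lines at 2-fold. Itgb8 and Tet1 changed by -0.22 and -0.23 in IFNα-treated cells and by -1.59 and -2.00 in mock cells, and only Lurap1l had changes of opposite sign, 0.32 and -0.05, with both intervals spanning 0.

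Whether CHX changed the response to IFNα was tested with an interaction term. Itgb8 was called, with a log2 difference of 1.37 (SE 0.21, adjusted p = 0.00762; 0.187% of all probe sets were called with a positive difference). That call was lost on leaving out any of 10 of the 12 arrays, all but replicate 3 of mock and replicate 1 of IFNα, with differences of 1.23 to 1.43 and adjusted p values of 0.0133 to 0.0312. The mock and CHX arrays in this difference are also the references of the contrasts that chose the genes, and high mock values of Itgb8 and Tet1 enter both, so the call is not independent of that choice. Tet1 had a larger difference, 1.77 (SE 0.35), that did not pass (adjusted p = 0.054), and Fgd3 had 0.82 (SE 0.38, adjusted p = 1). The same difference for IFNγ, which is a description, was 1.30 for Itgb8, 1.04 for Tet1, 1.02 for the main probe set of Lurap1l, 0.25 for Fgd3, -0.24 for Rgs4, -0.58 for Bnc1 and -0.81 for Nppb. For Ltbp3 it ran from -2.90 (1437833_at) and -2.02 (1456189_x_at) to -0.44, and for Krtap1-5 it was -4.62, a value that rests on levels below 8.5.

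Across the 18 arrays the main probe sets of the 9 genes varied together in part. The log2 intensities of Rgs4 and Nppb had a Pearson r of 0.959, those of Itgb8 and Tet1 0.888, and those of Bnc1 and Ltbp3 0.873, while Fgd3 and Ltbp3 had -0.671. The arrays share treatments and scaling, so these values describe the pattern over 6 treatments and are given without a test. The 2 genes most like each member over the 18 arrays were Jade1 and Cited2 for Rgs4 (both r = 0.975), Tcim and Dusp1 for Nppb (0.976 and 0.960), Dusp1 and Sertad4 for Lurap1l (0.940 and 0.927), and Tagln and Selenos for Fgd3 (0.978 and 0.975). For Bnc1 they were Fam110c and Nr2f2 (0.976 and 0.962), for Ltbp3 Marveld1 and Cgref1 (0.973 and 0.967), and for Krtap1-5 Wnk4 and Pkp2 (0.979 and 0.955). For Itgb8 they were Cilk1 and Afap1 (0.953 and 0.943), and for Tet1 Slc25a12 and Mxi1 (0.931 and 0.909).

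Other genes of the members' families were set against the same shares of all probe sets. Called lower were 0.209% with IFNγ over mock and 0.612% with IFNγ + CHX over CHX. With CHX over mock 4.07% were called lower and 2.51% higher. At an unadjusted p below 0.05, 5.34% of all probe sets were lower and 5.47% higher with IFNγ over mock. These shares were 10% and 8.03% with IFNγ + CHX over CHX, and 18.2% and 12.7% with CHX over mock. Of 17 other genes for storage, activation and reception of TGF-β, 1 was called lower with IFNγ over mock and 1 with IFNγ + CHX over CHX, in both cases Tgfb2, a TGF-β ligand, with log2 changes of -1.21 (SE 0.17, adjusted p = 0.000346) and -1.35 (SE 0.17, adjusted p = 6.6e-05). Tgfb2 had geometric means of 87.7 in IFNγ + CHX and 224 in CHX cells, and 36.8 in IFNγ and 85.1 in mock cells, and like Rgs4 and Fgd3 it rose with CHX (1.95 in IFNα-treated and 1.39 in mock cells). Mmp2, a matrix protease, fell with CHX in mock cells by 1.04, and Itgav, the αv subunit that partners Itgb8, rose by 1.05. Of 14 target genes of TGF-β limma called 0 with IFNγ either without or with CHX (3 and 6 had an unadjusted p below 0.05), while with CHX in mock cells Tagln and Skil rose by 1.85 and 1.00 and Bhlhe40 fell by 1.58.

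Among 8 other RGS genes limma called 0 with IFNγ without or with CHX (1 and 4 at an unadjusted p below 0.05), and CHX lowered 3 of them in mock cells, Rgs2 (-1.34), Rgs12 (-1.67) and Rgs19 (-1.08), against the rise of Rgs4. Of 9 genes for DNA methylation and its removal, 0 were called with IFNγ without or with CHX (0 and 1 unadjusted), and the methyltransferase gene Dnmt3b was called lower with CHX in mock cells (-1.45), as Tet1 was. Of 12 genes of the FGD family and the Cdc42 cycle, the effector gene Cdc42ep2 was called higher with IFNγ + CHX over CHX (2.50, SE 0.30, adjusted p = 5.62e-05) and lower with CHX in mock cells (-1.84), the reverse of Fgd3 in both, and 0 of the 12 were called with IFNγ over mock (3 unadjusted). Of 7 other genes of the natriuretic peptide system Npr3, the clearance receptor, was called lower with CHX in mock cells (-1.07), and 0 were called with IFNγ without or with CHX (2 and 1 unadjusted). The 3 measured relatives of Bnc1 and Krtap1-5 gave 0 calls in these contrasts (0 and 0 unadjusted with IFNγ, 1 with CHX in mock cells).

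A further 17 genes came from a list that the study had drawn up as repressed by IFNγ, and these arrays may have had a part in its choice, so their direction is no independent evidence. All 17 had negative log2 changes with IFNγ in both CHX states, with medians of -1.21 without and -1.61 with CHX. Without CHX 6 were called lower, led by Id4 (-1.71), Metrnl (-1.44) and Dusp1 (-1.40), and with CHX 10, led by Hes1 (-2.50), Tmem119 (-1.73) and Metrnl (-1.70). With IFNα limma called 0 of 17 over mock and 0 over CHX, and 0 had an unadjusted p below 0.05 in either. With CHX in mock cells Tslp (2.20) and Cited2 (1.05) were called higher and none lower, so that this list held, like the 9 genes, members that rose with CHX.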

How the data were processed

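Newly transcribed RNA was purified by 4sU tagging from NIH-3T3 cells and hybridised to Affymetrix mouse expression arrays, 18 in all, 3 for each of 6 treatments. The deposited values are linear intensities per probe set, which the authors made with gc-RMA (the submitters' notes name Affymetrix Expression Console); a depth is not defined for arrays, and their number limits the precision. The 64 control probe sets were left out, log2 was taken, and the 27773 probe sets with the highest maximum (8.5 or more) were fitted with limma 3.58.1 in R 4.3.3, in 1 model of 6 treatments with Benjamini-Hochberg adjustment. A call needed an adjusted p below 0.01 and a 2-fold change. The main probe set of a gene has the highest mean log2 value. Gene names came from the platform annotation. The script was tested on simulated data. Of each list up to 3 called genes per contrast were named, those with the largest change, and for each member the 2 other genes with the highest r over the 18 arrays.

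The members and the gene lists were chosen with earlier results of these data known. The p-values measure the spread between the arrays of a treatment, which the paper calls biological replicates. Arrays of the same replicate number tended to deviate together. In each contrast of 2 treatments except IFNγ over mock, every such pair had r above 0.1, from 0.227 to 0.784. With IFNγ over mock the lowest was -0.09. Over all treatments 38 of 45 same-number pairs were above 0.1 (lowest -0.401), as were 25 of 90 pairs of different number. The number was therefore also fitted as a block. Other alternatives were added pseudocounts, no filter, quantile normalization, median centring, only the arrays compared, and leaving out each array. Leaving out both arrays of lowest upper quartile was chosen after seeing the data.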

Additional observations from a re-analysis of the deposited data

Results flagged for a closer look

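The response of Itgb8 to IFNα differed between cells with and without CHX: the log2 change with IFNα was 0.02 over CHX and -1.35 over mock, a tested difference of 1.366 (SE 0.21, adjusted p = 0.00762 in the limma fit, n = 3 arrays per treatment). All 3 IFNα arrays were below all 3 mock arrays, and under CHX the arrays overlapped. Geometric means were 31.73 in IFNα + CHX, 31.35 in CHX, 36.98 in IFNα and 94.17 in mock cells, so mock cells alone stood apart. The adjusted p over the alternatives ran from 0.00316 to 0.0435, and the call was lost in 14 of 20. The mock and CHX arrays were also references of the contrasts that chose Itgb8, so the test is not independent of that choice. What sets the difference was not tested.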

How the results depend on the processing

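None of the 42 values run under the alternatives changed sign; values near 0 were not among them. Of 16 calls for members, 8 held under every alternative, those of Bnc1, Fgd3 and of Ltbp3 by 1418049_at in both contrasts with CHX and of Itgb8 and Krtap1-5 with CHX over mock, that of Krtap1-5 being fixed by the filter. The number called with IFNα over mock was 1, against 2 with log2(value + 16), where Tet1 was added, and 0 with only the arrays compared (Itgb8 adjusted p = 0.0653). With IFNα + CHX over IFNα it was 7, against 3 with only the arrays compared, and 5 to 8 without 1 array. For the IFNα by CHX difference it was 1, against 0 with no filter, quantile normalization, only the arrays compared or without both arrays of lowest upper quartile, and 0 to 1 without 1 array. With CHX over mock it was 6 to 8 throughout. The replicate block gave 8 in place of 7 in both contrasts with CHX, through Nppb, and changed no other call. The falls with IFNγ of Itgb8, Fgd3 and Tet1 without CHX shrank to -1.30, -1.35 and -1.46 with log2(value + 16), and that of Krtap1-5 under CHX to -2.78. By the second Lurap1l probe set (1459552_at) the fall without CHX shrank from -2.47 to -1.99. By the main one (1428384_at) it stayed between -1.91 and -1.71 in every alternative. Values near 8.5 are limited by the background of the array.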
